A study of Caenorhabditis elegans with 15 samples.

Results

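WT early embryos of the nematode Caenorhabditis elegans were compared after 1 h at 37 °C (heat stress, HS) and at 20 °C, in 3 libraries per temperature, which are 6 of the 15 RNA-seq libraries of the series. The comparison was chosen by strain and temperature alone, and every gene of the count table entered it. The heated group was N2 (Bristol) at 37 °C for 1 h, and its control was N2 (Bristol) kept at 20 °C. Both held embryos before the bean stage, collected from synchronized cultures as independent biological replicates. The worm cultures were heated, and embryos were then isolated from them. Values of 3 further groups are given beside some results: met-2(n4256) embryos, which carry a deletion of met-2 (met-2Δ), after 1 h at 37 °C and at 20 °C, and met-2(gw1660) embryos, described by the study as catalytically deficient (met-2-CD), at 20 °C. MET-2 is a histone H3 lysine 9 methyltransferase. The study asked how transcription in embryos responds to heat and how that response relates to the loss of MET-2.

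A sudden rise in temperature unfolds proteins, and cells answer through heat shock factor 1 (HSF-1), a transcription factor that turns on genes of molecular chaperones. HSP70 and HSP110 proteins bind and refold unfolded stretches, small heat shock proteins hold unfolded proteins in solution, and HSP90 with its co-chaperones matures client proteins. Early embryos start from RNA deposited by the mother, then switch on a first set of zygotic regulators of cell fate, and make the proteins of muscle, gut, nerve and cuticle only later.

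Levels are CPM, a gene's count scaled to the size of its library with TMM factors, and differences are log2 fold changes (log2FC, 37 °C over 20 °C) with their standard error (SE) and the false discovery rate (FDR) from the quasi-likelihood test of edgeR. Library totals were 24.38 to 27.13 M counts at 37 °C and 45.83 to 58.84 M counts at 20 °C, so 3 counts, taken as the floor of detection, equal 0.106 to 0.115 CPM at 37 °C and 0.0564 to 0.074 CPM at 20 °C. Of 20392 genes, 15471 had enough counts to be tested. At FDR below 0.01 and a fold change above 4, 4364 genes (28.2%) were higher and 622 genes (4.02%) were lower in WT 37 °C than in WT 20 °C. At a fold change above 2, the rule used here for single genes and gene lists, 37.3% of all genes tested rose and 16.9% fell, and the median log2FC of all genes was 0.18.

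The 3 WT 20 °C libraries stood apart from the other 12 libraries, of which 6 were also unheated. In 28 genes all WT 20 °C libraries had at most 3 counts and all 12 others at least 20, or the reverse. More widely, of the 4364 genes called higher, 3452 (79.1%) had a mean in WT 37 °C more than 2-fold above the means of both unheated met-2 mutant groups, and 391 (8.96%) lay within 2-fold of both. Of the 622 genes called lower, 310 (49.8%) lay more than 2-fold below both mutant groups, and 191 (30.7%) lay within 2-fold of both. Of the 2612 genes that fell at the 2-fold rule, 1575 (60.3%) lay within 2-fold of both. WT 37 °C and the unheated mutant groups differ in both genotype and temperature, so these shares do not separate them. Why the WT 20 °C libraries stood apart was not tested. The heat comparison in met-2Δ, 37 °C over 20 °C, shares no library with the one in WT, and in it 12.8% of genes rose and 4.3% fell at the 2-fold rule. Among the 4364 genes called higher in WT, 4095 had a positive log2FC in met-2Δ, with a median of 1.09 there and of 3.71 in WT. The met-2Δ median over all genes tested was 0.04. Of the 4364 genes, 1712 (39.2%) passed the 2-fold rule in met-2Δ.

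Chaperone transcripts took up more of the heated libraries. The 87 genes of the 5 chaperone lists together took 5.13%, 4.8% and 4.58% of all counts in WT 37 °C, against 1.76%, 1.77% and 1.78% in WT 20 °C. The groups did not overlap, and the share in unheated met-2Δ and met-2-CD embryos ran from 1.89% to 1.95%. Within these lists the response was uneven: inducible members of the HSP70, HSP90 and small heat shock protein families rose, while most co-chaperones, and the organelle HSP70 and HSP90 proteins other than hsp-4, passed no 2-fold test or fell.

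**Figure D1:**
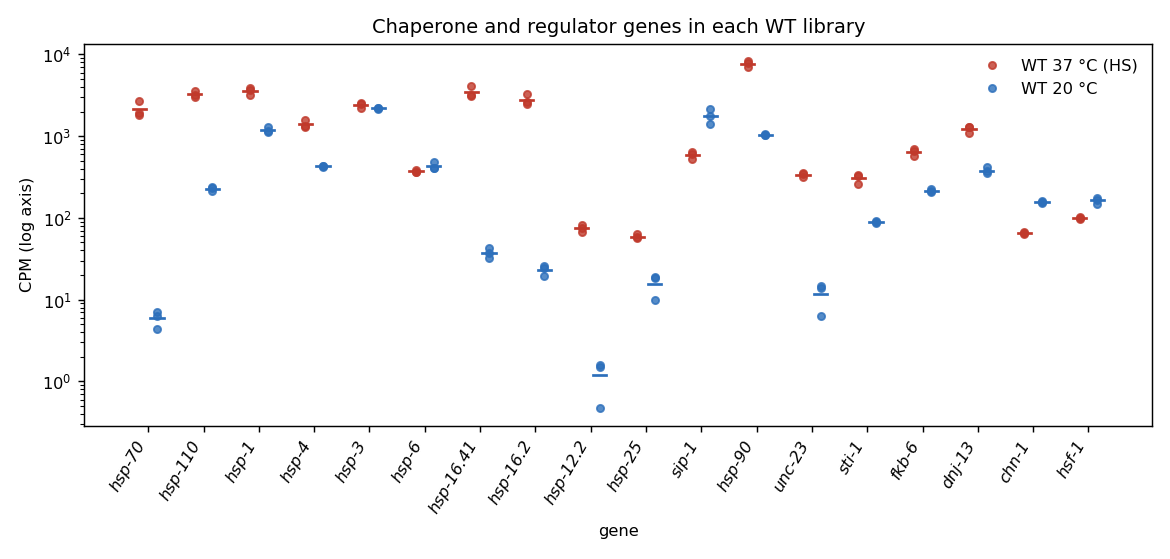
Level of 18 chaperone and regulator genes in each WT library, in CPM on a log axis, with WT 37 °C (HS) to the left of WT 20 °C; points are libraries and short lines are means of 3 libraries. The heated and unheated points of hsp-70, hsp-16.41 and hsp-16.2 lie furthest apart, those of hsp-3 lie close together, and hsf-1, chn-1 and sip-1 lie lower at 37 °C.

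All 11 listed members of the HSP70 family were tested, and 6 rose (54.5%, beside 37.3% of all genes), none fell and 5 did not pass the 2-fold rule. hsp-70, a strictly heat-inducible cytosolic HSP70, had 2710, 1820 and 1910 CPM in WT 37 °C, against 7.11, 6.3 and 4.41 CPM in WT 20 °C. Its log2FC was 8.49 ± 0.25 (SE, edgeR FDR 4.25e-13), and it was 8.83 ± 0.27 in met-2Δ. hsp-110, which resets HSP70 by exchanging its nucleotide, had 3600, 3210 and 3030 CPM in WT 37 °C, against 216, 230 and 237 CPM in WT 20 °C, a log2FC of 3.85 ± 0.09. hsp-1, the constitutive cytosolic HSP70, rose by a log2FC of 1.59 ± 0.09 and had a high level without heat, with 3850, 3660 and 3180 CPM in WT 37 °C, against 1120, 1150 and 1280 CPM in WT 20 °C. Per kilobase of exon, hsp-1 with 1720 CPM per kb in WT 37 °C remained above hsp-110 with 1210 and hsp-70 with 1040.

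The neighbouring genes F44E5.4 and F44E5.5, also of the HSP70 family, had the highest log2FC of all named genes (13.63 ± 0.19 and 14.27 ± 0.22). They are near-identical copies of each other, so their separate counts are uncertain. F44E5.4 averaged 1360 CPM in WT 37 °C and 0.0987 CPM in WT 20 °C, and F44E5.5 1680 CPM in WT 37 °C and 0.0785 CPM in WT 20 °C, near the floor. Without heat the mutants were far above that and below WT 37 °C: F44E5.4 averaged 7.52 CPM in met-2Δ embryos and 19.7 CPM in the met-2-CD group, and F44E5.5 averaged 10 and 25.5 CPM in the same groups. The log2FC in met-2Δ was 6.96 for F44E5.4 and 6.88 for F44E5.5.

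Of the organelle members of the family, hsp-4 rose and the others passed no 2-fold test. hsp-4, a BiP chaperone of the endoplasmic reticulum (ER), had 1560, 1340 and 1280 CPM in WT 37 °C, against 417, 431 and 431 CPM in WT 20 °C (log2FC 1.71 ± 0.07, edgeR FDR 1.07e-11). hsp-3, the other BiP of the worm, had a log2FC of 0.12 ± 0.07 (edgeR FDR 0.13), with means of 2390 CPM in WT 37 °C and 2200 CPM in WT 20 °C. hsp-6, the mitochondrial HSP70, had a log2FC of -0.22 ± 0.08. stc-1, an ER HSP70-like protein, had a log2FC of -0.95 ± 0.07, which is just under the 2-fold rule.

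Of 18 listed small heat shock protein genes, 14 were tested, 11 rose (78.6%) and 1 fell, with a median log2FC of 3.63 beside 0.18 for all genes. Of all genes at 1 to 4 CPM in WT 20 °C, where the median level of this list lay, 45.2% rose. hsp-16.41 had 4160, 3100 and 3190 CPM in WT 37 °C, against 37.3, 42.7 and 32 CPM in WT 20 °C, a log2FC of 6.54 ± 0.17. hsp-16.2, its divergently transcribed partner, had 3280, 2490 and 2640 CPM in WT 37 °C, against 26.1, 24.3 and 19.3 CPM in WT 20 °C, a log2FC of 6.91 ± 0.19. Per kilobase of exon these 2 short genes stood at 5440 and 4850 CPM per kb in WT 37 °C, above hsp-90 with 3280. The 4 untested genes were the 2 copies each of hsp-16.1 and hsp-16.48, with 0 or 1 count in every WT library. Only reads with a single alignment were counted and these genes have identical copies, so their counts say nothing of their expression.

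Several other small heat shock protein genes rose from low levels. hsp-12.2 had 82.8, 67.5 and 74.3 CPM in WT 37 °C, against 1.49, 1.58 and 0.469 CPM in WT 20 °C (log2FC 5.96 ± 0.40). Its mean was 18 CPM in unheated met-2Δ and 18.7 CPM in unheated met-2-CD embryos, and its log2FC in met-2Δ was 1.05 ± 0.32. hsp-17 (log2FC 4.96 ± 0.30, and 2.23 in met-2Δ), hsp-43 (4.35 and 0.38) and hsp-12.6 (3.90 and 1.62) rose from means of 0.094 to 0.243 CPM in WT 20 °C. sip-1, a small heat shock protein of oocytes and embryos, was the 1 member that fell: it had 528, 607 and 637 CPM in WT 37 °C, against 1740, 1410 and 2140 CPM in WT 20 °C (log2FC -1.58 ± 0.14). Its mean was 663 CPM in unheated met-2-CD embryos, near the heated WT libraries, and 1110 CPM in unheated met-2Δ embryos, above them, with a log2FC in met-2Δ of -0.85 ± 0.14.

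Among 14 tested genes of HSP90 and its co-chaperones, 4 rose (28.6%) and 1 fell (7.14%), beside 37.3% and 16.9% of all genes tested. The median level of the list in WT 20 °C was 154 CPM, and 2.76% of all genes at 50 to 200 CPM rose. hsp-90, the cytosolic HSP90, had 8220, 7940 and 7030 CPM in WT 37 °C, against 1050, 1020 and 1020 CPM in WT 20 °C (log2FC 2.91 ± 0.08, edgeR FDR 3.28e-13, and 1.5 ± 0.08 in met-2Δ), the largest gain in CPM of any gene. Its mean without heat was 1810 CPM in met-2Δ embryos and 2070 CPM in the met-2-CD group. unc-23, a BAG-family co-chaperone of HSP70, had 354, 342 and 313 CPM in WT 37 °C, against 14, 14.8 and 6.31 CPM in WT 20 °C (log2FC 4.84 ± 0.28). sti-1, the adaptor that joins HSP70 to HSP90, rose by a log2FC of 1.78 ± 0.08, and fkb-6, an FKBP-type immunophilin, by 1.58 ± 0.07. unc-45, the myosin chaperone (0.99 ± 0.06), hip-1 (0.85 ± 0.05) and ahsa-1, an activator of the HSP90 ATPase (0.62 ± 0.10), passed the FDR threshold but not the 2-fold rule.

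The organelle HSP90 paralogs passed no test: enpl-1 of the ER had a log2FC of 0.05 ± 0.08 and hsp-75 of mitochondria of 0.06 ± 0.06. chn-1, the CHIP ubiquitin ligase that marks chaperone clients for degradation, fell, with 62.7, 65.6 and 67 CPM in WT 37 °C, against 157, 154 and 163 CPM in WT 20 °C (log2FC -1.28 ± 0.06). Its mean of 75.3 CPM in unheated met-2Δ and 71.3 CPM in unheated met-2-CD embryos lay near the heated WT libraries, and its log2FC in met-2Δ was -0.15 ± 0.06.

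DnaJ proteins, which deliver clients to HSP70, did not rise as a family: of 29 tested genes 2 rose (6.9%) and 8 fell (27.6%), and the median log2FC was -0.73. Of all genes at 50 to 200 CPM in WT 20 °C, where the median level of this list lay, 2.76% rose and 27.1% fell. dnj-13, a cytosolic class B DnaJ protein, had 1290, 1300 and 1080 CPM in WT 37 °C, against 371, 415 and 353 CPM in WT 20 °C (log2FC 1.69 ± 0.09, and 1.78 ± 0.09 in met-2Δ). All 8 DnaJ genes that fell had heated WT means within 2-fold of both unheated mutant groups. Of 15 chaperonin and prefoldin genes 3 rose (20.0%) and 2 fell (13.3%), with a median level that also lay at 50 to 200 CPM. Among the 3 that rose were cct-4 (1.46 ± 0.06) and cct-2 (1.45 ± 0.08), which build the cytosolic chaperonin ring. These 3 genes too lay within 2-fold of both unheated mutant groups in WT 37 °C.

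The transcripts of the HSF-1 pathway itself were not raised. hsf-1 averaged 99.8 ± 3.24 CPM in WT 37 °C and 163 ± 14 CPM in WT 20 °C (SD, n = 3 each), with no overlap, a log2FC of -0.71 ± 0.08, and of 0.05 ± 0.08 in met-2Δ. hsb-1, a small protein that binds HSF-1, had a log2FC of -0.86 ± 0.09, ddl-1, which binds HSF-1 together with other partners, fell (-1.23 ± 0.10), and ddl-2 had -0.03 ± 0.16.

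Other stress lists differed among themselves. Of 18 genes of the ER unfolded protein response 1 rose (hsp-4) and 1 fell (atf-6, an ER-anchored transcription factor, -1.51 ± 0.07). Of 10 genes of the mitochondrial unfolded protein response 1 rose and 2 fell, and of 33 proteasome genes 1 rose and 2 fell, with medians of -0.05, -0.14 and -0.21 for these 3 lists, beside 0.18 for all genes. The proteasome gene that rose was rpn-3, a subunit of the regulatory lid, with 558, 569 and 535 CPM in WT 37 °C, against 194, 207 and 206 CPM in WT 20 °C (log2FC 1.45 ± 0.06). It lies beside hsp-110 on chromosome III. aip-1, which acts on the proteasome during arsenite stress, rose in both strains, by a log2FC of 1.56 ± 0.08 in WT and 1.47 ± 0.09 in met-2Δ. ubq-1, the polyubiquitin gene, rose in WT (1.39 ± 0.07), with a mean of 2880 CPM in WT 37 °C, 1100 CPM in WT 20 °C, 2660 CPM in unheated met-2Δ and 2500 CPM in unheated met-2-CD embryos. Of 30 genes of the ubiquitin list 5 rose and 7 fell. Of 9 genes of the hypoxia response 1 rose and 5 fell (median -1.25), and of 5 tested apoptosis genes none rose and 3 fell (median -1.17), including ced-3, the executioner caspase (-1.34 ± 0.12 in WT and -0.06 in met-2Δ). Some lists had more genes that rose, but most of these were of low level. Of 10 tested genes of the metal response 7 rose and none fell (median 1.77), and of 22 pals genes 15 rose and 1 fell (2.53). Of 6 chil genes, of chitinase-like proteins, 4 rose and 1 fell (1.78). The median level of each of these lists in WT 20 °C lay between 0.1 and 1 CPM. At that level 73.1% of all genes tested rose, and none of these lists had a higher share. Of 62 redox and detoxification genes 28 rose and 7 fell (0.70), and of 113 xenobiotic genes 52 rose and 14 fell (0.82). Both lists had a median level between 1 and 4 CPM, where a similar share of all genes tested, 45.2%, rose. Of 28 genes of bZIP factors and stress signalling 9 rose and 8 fell (0.17), beside 37.3% of all genes that rose and 16.9% that fell.

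Several genes outside the chaperone lists also had large gains. asns-2, an asparagine synthetase, had 2810, 4180 and 3020 CPM in WT 37 °C, against 198, 207 and 118 CPM in WT 20 °C (log2FC 4.26 ± 0.26, and 3.16 in met-2Δ). R107.5 had 2400, 2110 and 1920 CPM in WT 37 °C, against 264, 219 and 227 CPM in WT 20 °C (3.18 ± 0.11, and 2.85 in met-2Δ). nurf-1, a subunit of the NURF chromatin remodeller, had 5190, 4170 and 3940 CPM in WT 37 °C, against 1130, 1060 and 1100 CPM in WT 20 °C (2.02 ± 0.11, and 1.97 in met-2Δ). The groups of these 3 genes did not overlap, and the unheated means of the met-2 mutants lay near WT 20 °C: 200 and 230 CPM for asns-2, 177 and 205 CPM for R107.5, and 908 and 1150 CPM for nurf-1. tent-5, a poly(A) polymerase of the TENT family, chosen after its values were seen, had 1270, 1090 and 1040 CPM in WT 37 °C, against 21.4, 20.3 and 15.1 CPM in WT 20 °C (5.90 ± 0.20, and 5.53 in met-2Δ). bath-34, of a family with BTB and MATH domains, had 167, 137 and 168 CPM in WT 37 °C, against 4.33, 4.85 and 4.73 CPM in WT 20 °C (5.09 ± 0.10, and 5.47 in met-2Δ).

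Some genes of very low level in WT 20 °C rose in both strains. spe-49, a sperm gene, had 10, 6.92 and 8.49 CPM in WT 37 °C, against 0, 0 and 0.0493 CPM in WT 20 °C (log2FC 8.83 ± 0.49, and 9.25 in met-2Δ). The chemoreceptor srt-14 had 4.97, 3.3 and 4.48 CPM in WT 37 °C, against 0, 0 and 0.0247 CPM in WT 20 °C (8.56 ± 0.51, and 8.22 in met-2Δ). pals-6, of a family induced by intracellular pathogens, had a log2FC of 5.02 ± 0.45 in WT and 5.30 in met-2Δ, and gcy-17, a receptor guanylyl cyclase, of 6.07 ± 0.30 and 5.24. The fitted values of spe-49 and srt-14 rest on unheated counts at or under the floor, so they are no bounds on the fold.

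Most listed genes of differentiated tissues rose. Of 21 genes of muscle contraction 20 rose and none fell, with a median log2FC of 4.49. Of 129 tested cuticle genes (of 169 in the table) 112 rose and 2 fell (median 3.56), of 18 intestine genes 14 rose and none fell (4.35), and of 21 synapse genes 18 rose and none fell (3.08). The shares that rose were 95.2% for muscle, 86.8% for cuticle, 77.8% for intestine and 85.7% for synapse genes. Among all genes at the median level of the list in WT 20 °C, 9.41% rose for muscle, 73.1% for cuticle, and 45.2% for intestine and synapse. In met-2Δ the same lists had medians of 1.31, 0.90, 0.58 and 0.65, and 17, 44, 4 and 3 members rose, against a background of 12.8%.

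**Figure D2:**
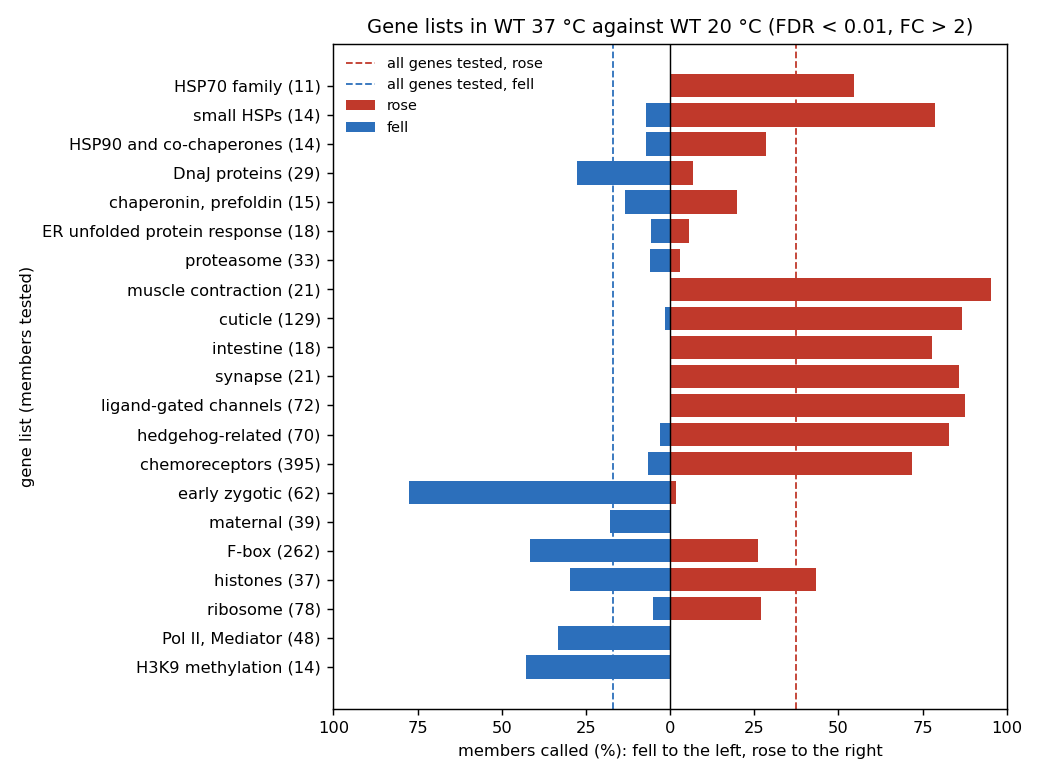
Share of the tested members of 21 gene lists that rose (right) or fell (left) in WT 37 °C against WT 20 °C, in percent, with the number tested in brackets; dashed lines mark the same shares over all genes tested, 37.3% and 16.9%. Tissue lists lie well to the right of the dashed line, early zygotic genes lie to the left, and the proteasome and ER lists hold few calls. The lines do not account for level. The cuticle, ligand-gated channel, hedgehog-related and chemoreceptor lists have median levels of 0.1 to 1 CPM in WT 20 °C. At that level 73.1% of all genes tested rose, a share that chemoreceptors (71.9%) did not exceed.

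Pharyngeal myosins led the muscle list. myo-1, a myosin heavy chain of the pharynx, had 259, 149 and 200 CPM in WT 37 °C, against 0.395, 0.358 and 0.419 CPM in WT 20 °C (log2FC 9.0 ± 0.48, edgeR FDR 1.25e-10). myo-2, the other pharyngeal myosin, had 321, 190 and 260 CPM in WT 37 °C, against 1.07, 0.788 and 1.09 CPM in WT 20 °C (8.02 ± 0.37). The groups were far apart, but unheated embryos of the mutants were not at the WT 20 °C level: myo-1 averaged 37.5 CPM in unheated met-2Δ and 5.19 CPM in unheated met-2-CD embryos, and myo-2 averaged 36.4 and 4.28 CPM. The body-wall myosins unc-54 (log2FC 3.86 ± 0.43) and myo-3 (4.50 ± 0.33) also rose, and act-4, an actin that is not specific to late muscle, had a log2FC of -0.12 ± 0.11.

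Collagens and cuticlins build the cuticle around the late embryo and larva. col-165 had 882, 593 and 726 CPM in WT 37 °C, against 0.0753, 0.477 and 0.0493 CPM in WT 20 °C (log2FC 11.87 ± 0.73). Its mean was 125 CPM in unheated met-2Δ and 18.3 CPM in unheated met-2-CD embryos, and its log2FC in met-2Δ was 1.49 ± 0.41. col-14 had 215, 142 and 175 CPM in WT 37 °C, against 0.132, 0.119 and 0.0493 CPM in WT 20 °C (10.70 ± 0.54, and 2.09 in met-2Δ), and cut-3, a cuticlin, had 503, 387 and 412 CPM in WT 37 °C, against 0.32, 0.263 and 0.222 CPM in WT 20 °C (10.62 ± 0.60, and 1.08 in met-2Δ). Library b was the lowest of the heated libraries for these cuticle genes and for myo-1 and myo-2.

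In the intestine list, asp-1, an aspartyl protease of the gut, had 359, 255 and 326 CPM in WT 37 °C, against 0.245, 0.597 and 0.321 CPM in WT 20 °C (log2FC 9.68 ± 0.61), and vha-6, a gut proton pump subunit, had a log2FC of 6.05 ± 0.28. ges-1, a gut esterase that embryos express early, had a log2FC of -0.43 ± 0.16. Among synaptic genes, snt-1, the synaptotagmin of vesicle release, had 15.9, 13.7 and 12.9 CPM in WT 37 °C, against 0.301, 0.263 and 0.148 CPM in WT 20 °C (5.85 ± 0.32, and 0.83 in met-2Δ). unc-13, which primes synaptic vesicles, had a log2FC of 5.40 ± 0.37 and rab-3 of 4.2 ± 0.25. Families with functions in sensing and signalling were also counted: 63 of 72 ligand-gated channel genes rose (87.5%) and none fell, 38 of 51 potassium channel genes rose (74.5%) and 2 fell, and 58 of 70 hedgehog-related genes rose (82.9%) and 2 fell. Of 1292 chemoreceptor genes in the table, 395 were tested, 284 rose (71.9%) and 26 fell. The median level of each of these lists in WT 20 °C lay between 0.1 and 1 CPM, where 73.1% of all genes tested rose. Most of the family was left out by the count filter, and with no filter 533 of 1261 chemoreceptor genes rose (42.3%) and 32 fell (2.54%), beside 34.6% and 15.2% of all 20065 genes with a count.

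**Figure D3:**
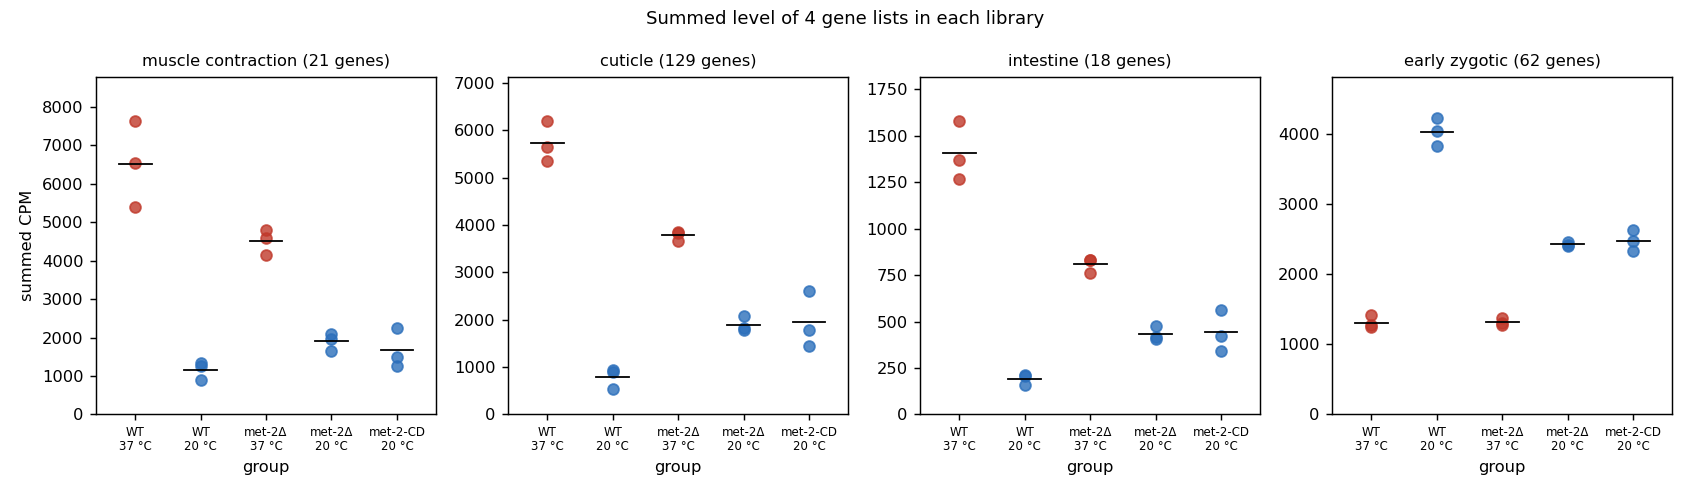
Summed CPM of 4 gene lists in each of the 15 libraries, by group, with heated groups in red, unheated groups in blue and lines at the mean of 3 libraries. Heated WT libraries are highest for muscle, cuticle and intestine genes, and WT 20 °C libraries are lowest for cuticle and intestine genes and highest for early zygotic genes, with the unheated met-2 mutants between those 2 groups for these 3 lists.

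Summed levels gave the same direction. Muscle genes summed to 7640, 5390 and 6550 CPM in WT 37 °C, against 1350, 1250 and 891 CPM in WT 20 °C, while they summed to 1270 to 2250 CPM in the 6 unheated mutant libraries. Intestine genes summed to 1580, 1270 and 1370 CPM in WT 37 °C, against 205, 213 and 161 CPM in WT 20 °C, and to 340 to 563 CPM in the 6 unheated mutant libraries. Heated WT libraries lay above every unheated library for both lists. To check the labelled stage, marker lists were summed: the 3 markers of differentiated muscle came to 1630 to 2560 CPM in WT 37 °C, 59.4 to 151 CPM in WT 20 °C, 430 to 635 CPM in unheated met-2Δ and 352 to 764 CPM in unheated met-2-CD embryos. The 5 early embryo markers were present in every WT library, at 1220 to 1410 CPM in WT 37 °C and 1370 to 1790 CPM in WT 20 °C, with none at 0. The 4 markers of differentiated intestine came to 405 to 518 CPM in WT 37 °C and 23.7 to 40.8 CPM in WT 20 °C, and the 4 of neurons to 240 to 265 CPM in WT 37 °C and 212 to 261 CPM in WT 20 °C. The neuron sum hides a rise of single members, since 3 of these 4 rose and none fell. Among them, unc-13 averaged 85.4 CPM in WT 37 °C and 2.01 CPM in WT 20 °C. The 4 markers of larval and adult cuticle came to 151 to 196 CPM in WT 37 °C and 30.9 to 78.1 CPM in WT 20 °C, while unheated met-2-CD embryos, with up to 200 CPM, overlapped heated WT. Whether embryos of different age contributed to the groups was not tested. In whole embryos, more cells of a type and more RNA per cell cannot be told apart.

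Genes of other cells that a preparation can hold were also counted. The 73 sperm markers of the table summed to 174 to 208 CPM in WT 37 °C and 110 to 115 CPM in WT 20 °C. Of the 26 that were tested 17 rose and 2 fell, and 10 of the 73 were at 0 in all WT libraries. The median level of the tested sperm markers in WT 20 °C lay between 0.1 and 1 CPM. At that level 73.1% of all genes tested rose, a share that the sperm markers did not exceed. The 6 yolk genes of the adult intestine summed to 10.7 to 18.3 CPM in WT 37 °C, against 0.931 to 2.39 CPM in WT 20 °C, and the 4 that were tested rose. Of 6 tested oocyte and eggshell markers none rose and 3 fell, and all 8 in the table summed to 610 to 888 CPM in WT 37 °C, against 1510 to 1980 CPM in WT 20 °C. Their part in the results above was not tested.

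Early zygotic regulators moved the opposite way. Of 62 tested genes 48 fell, 28 of them by more than 4-fold, and 1 rose, with a median log2FC of -1.83, against 16.9% of all genes that fell. In met-2Δ 26 of the same genes fell and none rose, against a background of 4.3%, with a median of -0.90. Summed, the list stood at 1410, 1270 and 1250 CPM in WT 37 °C, against 4040, 3820 and 4220 CPM in WT 20 °C. It stood at 1270 to 1370 CPM in heated met-2Δ and at 2330 to 2630 CPM in the 6 unheated mutant libraries, so every heated library was below every unheated one.

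The genes of this list act at the first cell fate decisions. pes-10, one of the first genes that the embryo transcribes, had 38.8, 38.3 and 35.2 CPM in WT 37 °C, against 230, 253 and 269 CPM in WT 20 °C (log2FC -2.74 ± 0.09, and -1.57 in met-2Δ). hlh-1, the MyoD factor of body-wall muscle, had 18, 18.4 and 17.1 CPM in WT 37 °C, against 76.6, 65.6 and 67.3 CPM in WT 20 °C (-1.97 ± 0.07, and -0.94 in met-2Δ). pha-4, the FoxA factor of the pharynx, had 70.5, 62.6 and 57 CPM in WT 37 °C, against 259, 251 and 254 CPM in WT 20 °C (-2.01 ± 0.07). Both regulators fell while the muscle and pharyngeal myosins rose in the same libraries. end-1, a GATA factor that sets the endoderm, fell by 2.36 on the log2 scale, with means of 6.95 CPM in WT 37 °C and 35.8 CPM in WT 20 °C. These 4 genes were picked after the list's values were seen.

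The lowest ratios of the list were in genes of the sdz group, named as targets of the maternal factor SKN-1. sdz-7 had 1.03, 1.22 and 1.45 CPM in WT 37 °C, against 23.8, 19.5 and 26.6 CPM in WT 20 °C (log2FC -4.24 ± 0.18, and -2.10 in met-2Δ). sdz-18 had 1.74, 1.36 and 1.68 CPM in WT 37 °C, against 24.6, 24 and 27.5 CPM in WT 20 °C (-3.99 ± 0.16, and -3.32 in met-2Δ). sdz-12 fell in both strains (-3.71 ± 0.28 in WT and -3.43 in met-2Δ).

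Maternal transcripts held fewer calls. Of 39 tested genes none rose and 7 fell (17.9%, near the 16.9% of all genes), with a median log2FC of -0.27 in WT and -0.25 in met-2Δ. The ones that fell most have roles in the oocyte and eggshell: cbd-1, a chitin-binding eggshell protein, had 179, 305 and 216 CPM in WT 37 °C, against 695, 702 and 917 CPM in WT 20 °C (-1.72 ± 0.19, and -1.93 in met-2Δ), egg-1, an oocyte surface receptor, had -1.54 ± 0.11, and cey-3, a Y-box RNA-binding protein, had -1.61 ± 0.09. Regulators of the first divisions showed no call: oma-1 had a log2FC of -0.09 ± 0.13, pie-1 of -0.08 ± 0.13 and skn-1 of 0.11 ± 0.13. Of 262 tested F-box genes, a fast-evolving family of ubiquitin ligase adaptors, 68 rose and 109 fell, and in met-2Δ 34 rose and 62 fell.

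Genes for basic machinery are given beside the 37.3% of all genes that rose and the 16.9% that fell. Of 48 genes of RNA polymerase II, Mediator, Integrator and 3' end processing none rose and 16 fell (33.3%, median log2FC -0.74), and of 14 genes of H3K9 methylation and its readers none rose and 6 fell (42.9%), among them hpl-1, an HP1 protein (-2.43 ± 0.10, and -0.91 in met-2Δ). Other lists had shares that fell near that of all genes: 21.4% of 42 splicing genes, 20.0% of 25 translation initiation genes, 16.1% of 31 nuclear pore genes, 15.8% of 38 respiratory genes and 15.6% of 32 tRNA synthetase genes. Of 78 ribosomal protein genes 21 rose (26.9%) and 4 fell (5.13%), both below the shares of all genes. In met-2Δ none of the polymerase, splicing, H3K9 or ribosomal genes passed the 2-fold rule, and the difference between the strains was not tested. In WT 37 °C, all 21 ribosomal genes that rose, 15 of the 16 polymerase genes and all 6 H3K9 genes that fell had means within 2-fold of both unheated mutant groups.

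Some single genes with large ratios were likewise near the unheated mutants in WT 37 °C. twk-49, a potassium channel, had 60.6, 66.2 and 67 CPM in WT 37 °C, against 0.884, 0.955 and 0.641 CPM in WT 20 °C (log2FC 6.27 ± 0.11), but 59 CPM in unheated met-2Δ and 62.2 CPM in unheated met-2-CD embryos. zip-10, a bZIP transcription factor, had a mean of 9.43 CPM in WT 37 °C, 0.464 CPM in WT 20 °C, 9.02 CPM in unheated met-2Δ and 8.28 CPM in unheated met-2-CD embryos. W09H1.4 had a mean of 2.23 CPM in WT 37 °C, 1340 CPM in WT 20 °C, 2.27 CPM in unheated met-2Δ and 1.48 CPM in unheated met-2-CD embryos. The log2FC of these 3 genes in met-2Δ was -0.05, -0.25 and 0.12.

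Histone genes, a family of near-identical copies, moved both ways. Of 37 tested genes 16 rose (43.2%) and 11 fell (29.7%) in WT, beside 37.3% and 16.9% of all genes tested. In met-2Δ none rose and 1 fell, against backgrounds of 12.8% and 4.3%. Of the 37, 7 were among the 28 genes that set WT 20 °C apart, which were picked for that difference. his-64 had 906, 972 and 966 CPM in WT 37 °C, against 2.82, 0.955 and 1.21 CPM in WT 20 °C, and means of 1410 CPM in unheated met-2Δ and 1580 CPM in unheated met-2-CD embryos, while his-3 had 506, 509 and 496 CPM in WT 37 °C, against 4880, 6330 and 4860 CPM in WT 20 °C, and means of 893 CPM in unheated met-2Δ and 1140 CPM in unheated met-2-CD embryos. Values of single histone genes are uncertain, since reads of copies may be split between them, and the part of this in the calls was not tested. All 70 histone genes together took 1.54%, 1.6% and 1.65% of counts in WT 37 °C, against 2.91%, 3.07% and 2.82% in WT 20 °C, and 1.75% to 1.86% in heated against 2.23% to 2.69% in unheated met-2Δ embryos.

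Transcripts of the mitochondrial genome were lower in heated WT than in WT 20 °C. Of 12 tested genes 8 fell and none rose, with a median log2FC of -1.55, and in met-2Δ none passed the 2-fold rule (median -0.24). ND1, of respiratory complex I, had 648, 705 and 610 CPM in WT 37 °C, against 2290, 1780 and 1870 CPM in WT 20 °C (-1.60 ± 0.12), and ND6 averaged 10.9 ± 3.93 CPM in WT 37 °C and 308 ± 73.7 CPM in WT 20 °C (SD, n = 3 each) (-4.82 ± 0.22). Unheated mutants lay near heated WT at both genes. ND1 averaged 756 CPM in unheated met-2Δ and 620 CPM in unheated met-2-CD embryos, and ND6 averaged 7.51 and 13 CPM. As a share of counts, the 12 genes took 3.67% to 3.9% in WT 37 °C and 4.91% to 5.2% in WT 20 °C, but 2.86% to 3% in heated and 2.86% to 3.62% in unheated met-2Δ embryos.

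The direction of change followed the level at 20 °C. Of 1663 tested genes with at most 0.1 CPM in WT 20 °C, 98.6% rose at the 2-fold rule and none fell. The share that rose was 73.1% at 0.1 to 1 CPM, 45.2% at 1 to 4 CPM, 9.41% at 10 to 50 CPM and 2.05% above 200 CPM, where 26.1% fell. Genes at the lowest level passed the count filter only through other libraries, so their share was fixed in part by the filter. With no filter, 53.3% of 5559 genes at up to 0.1 CPM and 59.9% of 4289 genes at 0.1 to 1 CPM rose. The level that sorts the genes is also the denominator of their fold change.

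**Figure D4:**
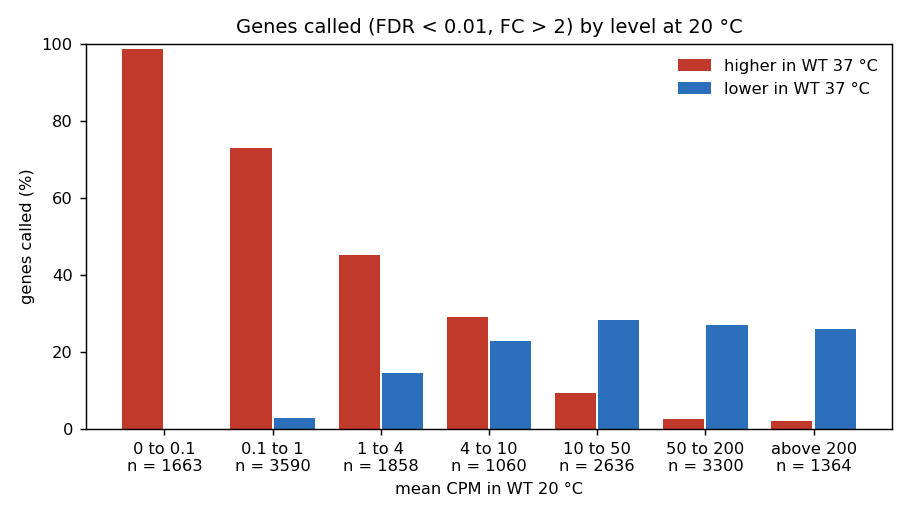
Share of genes called at FDR below 0.01 and a fold change above 2, in percent, by mean CPM in WT 20 °C, with the number of tested genes under each bin; red bars are genes higher and blue bars genes lower in WT 37 °C. The red bars fall from 98.6% in the lowest bin to 2.05% in the highest, and the blue bars stay between 22.8% and 28.3% above 4 CPM.

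More genes were detected after heat, from fewer reads. With at least 10 counts required, 15639, 15146 and 15504 genes were detected in WT 37 °C, against 13296, 12905 and 12689 in WT 20 °C. When all 6 libraries were thinned to the smallest total, the numbers were 15378, 14952 and 15504 in WT 37 °C, against 11667, 11771 and 11438 in WT 20 °C. The groups did not overlap in either case (exact permutation test, two-sided, p = 0.1, the smallest value that 3 against 3 libraries allow). After thinning, 829 genes had at least 20 counts in every WT 37 °C library and at most 3 in every WT 20 °C library, and 16 genes had the reverse. Of these, 13 and 11 were among the 28 genes that set WT 20 °C apart from all other libraries.

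Genes of chromosome V rose more often than those of other chromosomes, at 50.4% of 3136 genes, against 26.8% on I and 27.6% on III, with 43.2% on X. Chromosome V also had the most genes of low level: 60.4% of its tested genes were below 4 CPM in WT 20 °C, against 32.6% on I. Among genes below 4 CPM the shares were 76.8% on V and 68.3% to 72.4% on the other chromosomes.

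Transcript length went with the change among protein-coding genes of at least 10 CPM in WT 20 °C, split by exon length into 5 groups. In the shortest group, with exons of 108 to 947 bases, 46.1% of 1433 genes fell and 3.14% rose, with a median log2FC of -0.93. In the longest group, from 2709 bases up, 151 of 1432 genes fell and 143 rose, with a median of -0.18. In met-2Δ the medians of the same groups were -0.34 and 0.01. The part of length in the calls of single genes and lists was not tested.

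The genes next to hsp-16.2 and hsp-16.41 rose with them. The pair lies head to head on chromosome V, with hsp-16.2 at 1804334 to 1804957 on the minus strand and hsp-16.41 at 1805178 to 1805875 on the plus strand of the WBcel235 assembly. srt-42, a chemoreceptor gene that starts 1585 bases beyond the end of hsp-16.41 on the same strand, had 482, 242 and 478 CPM in WT 37 °C, against 1.83, 2.08 and 1.97 CPM in WT 20 °C (log2FC 7.68 ± 0.28, edgeR FDR 2.77e-12, and 6.43 in met-2Δ). srt-41, which starts 1191 bases beyond hsp-16.2 on its strand, had 44.8, 18.9 and 44.5 CPM in WT 37 °C, against 0.0753, 0.143 and 0.321 CPM in WT 20 °C (7.69 ± 0.44, and 5.98 in met-2Δ). Further out, Y46H3A.5 had 179, 87.1 and 177 CPM in WT 37 °C, against 1.03, 1 and 0.962 CPM in WT 20 °C (7.2 ± 0.28, and 4.77 in met-2Δ), and F36H9.1 had a log2FC of 8.42 ± 0.46. gly-7, a glycosyltransferase gene at the right edge of this stretch, had a log2FC of 0.77 ± 0.07. Unheated mutant embryos were near WT 20 °C at these genes, with means of 1.48 and 1.11 CPM for srt-42. The locus was picked after its values were seen. Counting took reads on the gene's own strand. Y46H3A.5 lies on the minus strand beyond hsp-16.41, and F36H9.1 on the plus strand beyond hsp-16.2, each opposite to that heat shock gene. Whether the reads of srt-42 and srt-41 come from transcripts of their own or run on from the heat shock genes was not tested. The source of the reads at the other neighbours was not tested either.

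**Figure D5:**
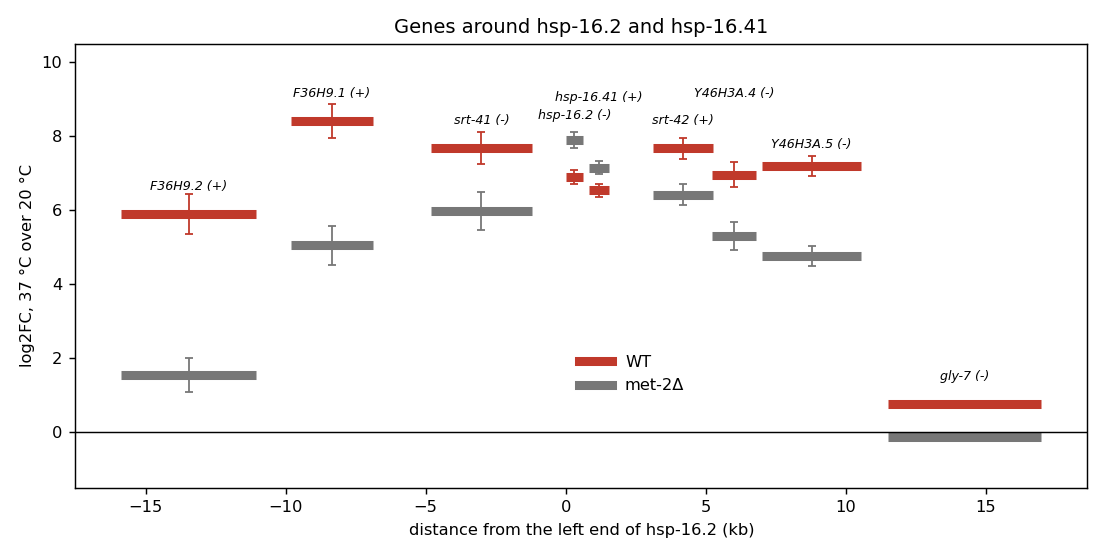
log2FC, 37 °C over 20 °C, of the tested genes around hsp-16.2 and hsp-16.41, in WT (red) and met-2Δ (grey); each bar spans the gene along the distance from the left end of hsp-16.2 in kb, the sign gives its strand and error bars are SE. Genes on both sides of the pair rise by 5.90 to 8.42 in WT, and gly-7 at the right edge stays at 0.77.

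Neighbours of other genes were also counted. Among the 40 genes with the largest gain in CPM, called at the 4-fold rule with no overlap between groups, 15 had a tested same-strand neighbour within 2000 bases downstream, and 10 of these neighbours rose, 6 of them from below 1 CPM in WT 20 °C. C47E8.11, 71 bases beyond hsp-90, had a log2FC of 6.23 and means of 26.3 CPM in WT 37 °C and 0.35 CPM in WT 20 °C, and aex-5, 74 bases beyond unc-54, had 5.05. ufbp-1, 303 bases beyond hsp-110, had -0.73, and ceh-49, beyond the giant muscle gene ttn-1, had -1.33. Upstream, 4 of 8 tested neighbours rose. scp-1 and ttll-12 are neighbours of each other and were both among the 40. ttll-12 thus entered the downstream count and scp-1 the upstream count, and their rise was fixed by the choice. Of all genes tested 37.3% rose, and of those at 0.1 to 1 CPM in WT 20 °C 73.1% rose. uggt-2, which spans hsp-70 on the other strand, rose with it (log2FC 5.14 ± 0.23).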

How the data were processed

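Per the labels, total RNA was depleted of ribosomal RNA, and the library kit differs between the labels and the study's methods. The authors deposited gene counts in whole numbers, with no scaling. They trimmed adapters, ran hisat2 from within QuasR on ce10, and counted unique alignments that lie on the strand of WS220 exons. Column names give the group and a letter but not the replicate number, and all columns had a group. Symbols matched 95.8% and WBcel235 positions 98% of tested genes, by identifier, and no position was converted between assemblies. Exon lengths are also from WBcel235.

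Counts were filtered with filterByExpr, scaled by TMM and tested with edgeR 4.0.16 (R 4.3.3, limma 3.58.1) in 1 quasi-likelihood model of 15 libraries and 5 groups, with no covariate and Benjamini-Hochberg adjustment over 15471 genes. A call needed a fold change over 4 (over 2 for single genes and lists) besides FDR below 0.01. On simulated counts for WT 37 °C against WT 20 °C (14822 genes), 199 of 200 genes changed by 2.5 on the log2 scale passed FDR below 0.01, with 1 unchanged gene. No fold rule was applied there. The changed genes had means above 1 CPM and the counts were drawn with the fitted dispersions, so genes of lower level were not covered. Replicate pairs were checked for duplicate libraries, and none agreed within sampling noise. Sets were also counted against the unheated mutant group means after adding 0.05 CPM. The SE includes the spread between replicate libraries as estimated by the model, and the floor of 3 counts covers counting error only.

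Named genes were the 12 highest and 12 lowest log2FC among called genes without overlap (at least 5 CPM in the higher group, more than 3 counts in a library of the lower), the 12 largest gains and losses in CPM, the 3 called members of each of 48 lists with the largest change, and all members of 4 heat shock lists at 1 CPM or more. The clause that left out genes with identical proteins could not be applied, and the 28 genes that set WT 20 °C apart were left out instead. Genes of the hsp-16, hsp-90, hsp-110 and hsp-70 neighbourhoods, the examples act-4, unc-54, myo-3, ges-1, rab-3, oma-1, pie-1, skn-1, ND1 and ND6, tent-5 and the 4 early zygotic regulators fell outside this rule and were chosen after their values were seen. The comparison and the lists were chosen with earlier results of these data known. Alternatives were other scaling (library totals, DESeq2 size factors), the DESeq2 1.42.0 Wald test, other filters and thresholds, thinning, 6 libraries only, a replicate block, a prior count of 8 and leaving out each library.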

Additional observations from a re-analysis of the deposited data

Results flagged for a closer look

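In 12 named genes all heated WT libraries lay on one side of all unheated WT libraries while the met-2Δ libraries were fully separated in the opposite direction. The difference between the strains was not tested. The excess of the WT log2FC over the met-2Δ log2FC was 9.43 for his-64, 6.88 for his-5, 4.91 for his-6, 4.6 for zip-10, 2.33 for snr-7, 1.97 for ucr-11 and 1.96 for ubl-5, all higher in heated WT. It was -7.96 for Y73B3B.1, -7.78 for Y108F1.5, -1.98 for COX3, -0.68 for the mitochondrial gene WBGene00010963 and -0.58 for bag-1, all lower in heated WT. In met-2Δ, Y73B3B.1 averaged 0.293 CPM with and 0.124 CPM without heat, and Y108F1.5 0.226 and 0.0537 CPM, near or under the floor. The edgeR FDR in met-2Δ was 0.138 and 0.0355 for these genes, 0.119 for his-64, 0.163 for zip-10 and 0.221 for COX3. It was 0.00302 for his-6 and 4.64e-05 for bag-1. Groups of 3 libraries were not examined for single outlying samples.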

How the results depend on the processing

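The numbers of genes higher and lower in WT 37 °C (4364 and 622 at the 4-fold rule) stayed within 1.5 times under the alternatives run, with 1 exception, the genes lower at a fold change above 2 (2612). A prior count of 8 gave 2943 higher and 517 lower, and dropping the count filter gave 5486 and 770. Without the 28 genes that set WT 20 °C apart, an alternative chosen after seeing the data, 4351 and 607 were called. Leaving out 1 library at a time gave 4344 to 4617 higher and 624 to 711 lower. With a replicate block by column letter 4419 and 681 were called in the 6 WT libraries, against 4413 and 683 without it. Letters did not pair libraries: the correlation of same-letter deviations was 0.009, 0.117 and 0.272. Of 3357 gene values under alternatives, 3328 kept their direction and side of FDR 0.01, 23 passed it only under the alternative and 6 no longer passed, with no change of direction. Scaling by library totals put the median log2FC of all genes at 0.41 against 0.18, turned the small medians of the proteasome (0.02), ER (0.18), mitochondrial unfolded protein response (0.09) and tRNA synthetase (0.05) lists positive, and left daf-41 (-0.11) short of the threshold. WBGene00010966 also missed it under that scaling (-0.23), under a filter of 1 CPM (-0.39) and without any 1 heated library (-0.48 to -0.45). The difference in genes detected kept its direction at every depth and count minimum tried. The alternative without genes that share an identical protein was not run. Depth limits statements on genes under about 0.1 CPM.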
